A study of Solanum lycopersicum with 27 samples.

Results

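The genes described here are 92 of the 34075 genes measured in tomato (Solanum lycopersicum) fruit, and they share 1 pattern at the onset of ripening. They were much higher in wild-type fruit at 34 than at 25 days post anthesis (dpa). In fruit of 4 ripening mutants at 34 dpa they lay well below the wild type, and in 1 other mutant, tdr4-1, they lay near it. Members were chosen by group mean FPKM (fragments scaled by gene length and by library size), taken as log2(mean + 1). The rule asked for a value at 34 dpa at least 2 above that at 25 dpa in wild type, for values at least 1.5 below wild type in dml2-3, rin/tdr4-1, rin-1 and nor-1 at 34 dpa, and for a value within 1 of wild type in tdr4-1. Differences that the rule used are therefore given below as descriptions, with no test.

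Total RNA of untreated fruit of the cultivar Ailsa Craig was sequenced in 27 libraries, 3 in each of 9 groups. At 34 dpa, which the labels call the breaker stage, the groups were the demethylase mutant dml2-3, the double mutant rin/tdr4-1, the single mutants rin-1, nor-1 and tdr4-1, and wild type (WT). At 25 dpa they were dml2-3, rin/tdr4-1 and WT. The labels give neither the number of plants or lines behind a group nor whether its replicates are separate plants. The p-values below therefore cover no more than the spread from library to library, which may be technical. The series title names MADS-box factors in the epigenetic control of ripening.

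Tomato is a climacteric fruit: at the breaker stage ethylene production climbs, chlorophyll is lost, carotenoids accumulate and the cell wall is loosened. RIN (RIPENING INHIBITOR) and TDR4, also called FUL1, are MADS-box transcription factors that can act in the same protein complexes, and NOR (NON-RIPENING) is a NAC transcription factor. DML2 is a DNA demethylase that removes 5-methylcytosine during ripening, including at promoters of ripening genes. No names accompany the identifiers in the deposited table. A RefSeq gene table of 41476 tomato genes (assembly SLM_r2.1) matched 0 of them, and still 0 when version numbers were dropped. Members are therefore given by identifier, without a name or a role, and the transcripts of the mutated genes were not used to check the labels.

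Libraries of a group resembled each other closely, with 1 exception. Across the 18906 genes that reached 1 FPKM in 3 or more libraries, the lowest correlation between log2 values of 2 libraries of a group was 0.981 in WT at 25 dpa and higher in 7 other groups. In dml2-3 at 25 dpa it was 0.916, between replicate 3 and the others, so the tests and stage differences that involve this group are given with and without that library. FPKM totals ran from 863193 to 894385 in dml2-3 at 34 dpa and from 993613 to 1044709 in WT at 34 dpa. Over all groups the highest total was 1122755, in rin-1. FPKM keeps no read numbers, so the depth is unknown. In whole fruit, fewer cells of a type and less RNA per cell cannot be told apart.

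The 92 genes are a part of the 425 genes that met the criterion for WT, called the stage-higher genes here. Of these 425 genes, 371 met the criterion for dml2-3, 337 that for rin/tdr4-1, 245 that for rin-1 and 186 that for nor-1. All 4 of these criteria were met by 139 genes. Of the 139, 46 lay more than 1 below WT in tdr4-1 and 1 lay more than 1 above it, which leaves the 92. Among genes that missed a single criterion, 45 missed that for nor-1, 13 that for rin-1, 10 that for rin/tdr4-1 and 1 that for dml2-3. The nor-1 criterion was thus the one most often missed alone among the 4. The count rests on the scaling: with FPKM divided by median-of-ratios size factors, 143 genes met the rule, 90 of the 92 among them. Without 1 library the count ran from 89 to 98.

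Summed over the 92 genes at 34 dpa, signal made up 0.481% to 0.485% of the FPKM total in the dml2-3 libraries, 0.424% to 0.432% in rin/tdr4-1, 0.467% to 0.478% in rin-1 and 1.03% to 1.07% in nor-1. It made up 6.31% to 6.37% in tdr4-1 and 7.27% to 7.51% in WT. At 25 dpa the share was 0.573%, 0.585% and 0.272% in replicates 1, 2 and 3 of dml2-3, 0.403% to 0.417% in rin/tdr4-1 and 0.429% to 0.445% in WT. The mutant libraries at 34 dpa other than those of tdr4-1 thus lay near the 25 dpa level, except that nor-1 stood above it. The 6 most abundant members supplied 46.4% of the summed signal in nor-1 and 57.9% in WT at 34 dpa.

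**Figure D1:**
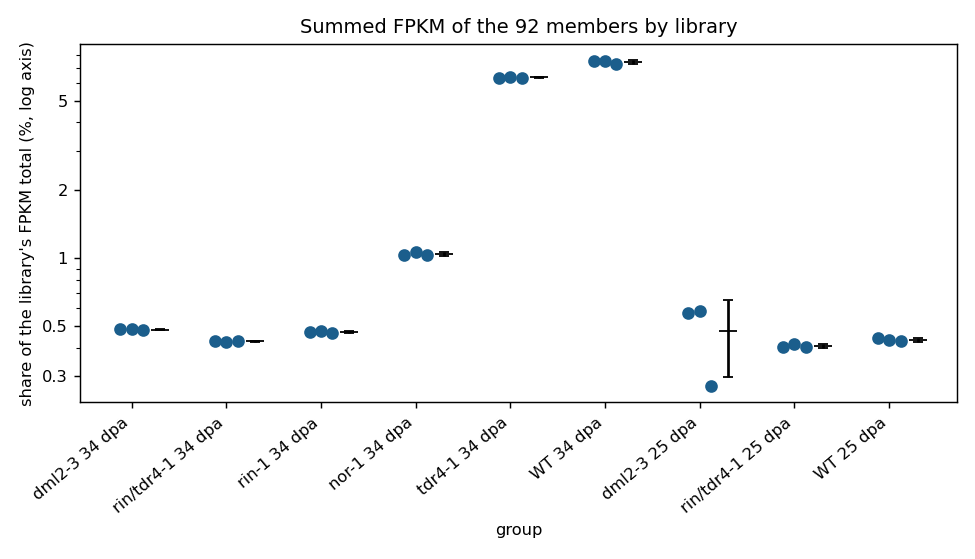
Share of each library's FPKM total taken by the 92 members (y axis, percent, log scale), for 9 groups of 3 libraries (x axis). Points are libraries, and the bar beside them gives mean and SD. The tdr4-1 and WT libraries at 34 dpa lie above 6%, nor-1 at about 1.05%, and the remaining groups below 0.6%, with replicate 3 of dml2-3 at 25 dpa lowest at 0.272%.

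The median member level at 34 dpa was 7.06 FPKM in dml2-3, 9.72 in rin/tdr4-1, 10.1 in rin-1, 16.4 in nor-1, 112.7 in tdr4-1 and 133.9 in WT. In WT at 34 dpa single members ran from 3.34 to 9617 FPKM. At least 100 FPKM was reached at 34 dpa by 12 members in dml2-3, 13 in rin/tdr4-1, 11 in rin-1, 16 in nor-1, 49 in tdr4-1 and 53 in WT. In WT at 25 dpa the median was 8.37 FPKM, and 22 members averaged below 1 FPKM. All 92 passed the filter on low values, 9 of them only through libraries of WT and tdr4-1 at 34 dpa.

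In 89 members, every WT library at 34 dpa lay above every library of the 4 mutants and of WT at 25 dpa. The rule chose members on the means of these groups, so this count largely follows from the selection. Every WT library at 34 dpa lay above those at 25 dpa in 2847 of all 18906 genes. The same held for 317 of the other 333 stage-higher genes. The remaining 3 members rest on 1 or 2 WT libraries. Solyc02g077790.1 had 364.5, 0 and 139.6 FPKM in WT at 34 dpa. Solyc07g021650.3 was listed at 0 in replicates 1 and 2 of WT at 34 dpa and had 67.2 FPKM in replicate 3. The same pattern held for Solyc09g010900.1, listed at 0 in the first 2 libraries and at 26.9 FPKM in replicate 3. All 3 were present in each tdr4-1 library, at 10.9 FPKM or more.

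**Figure D2:**
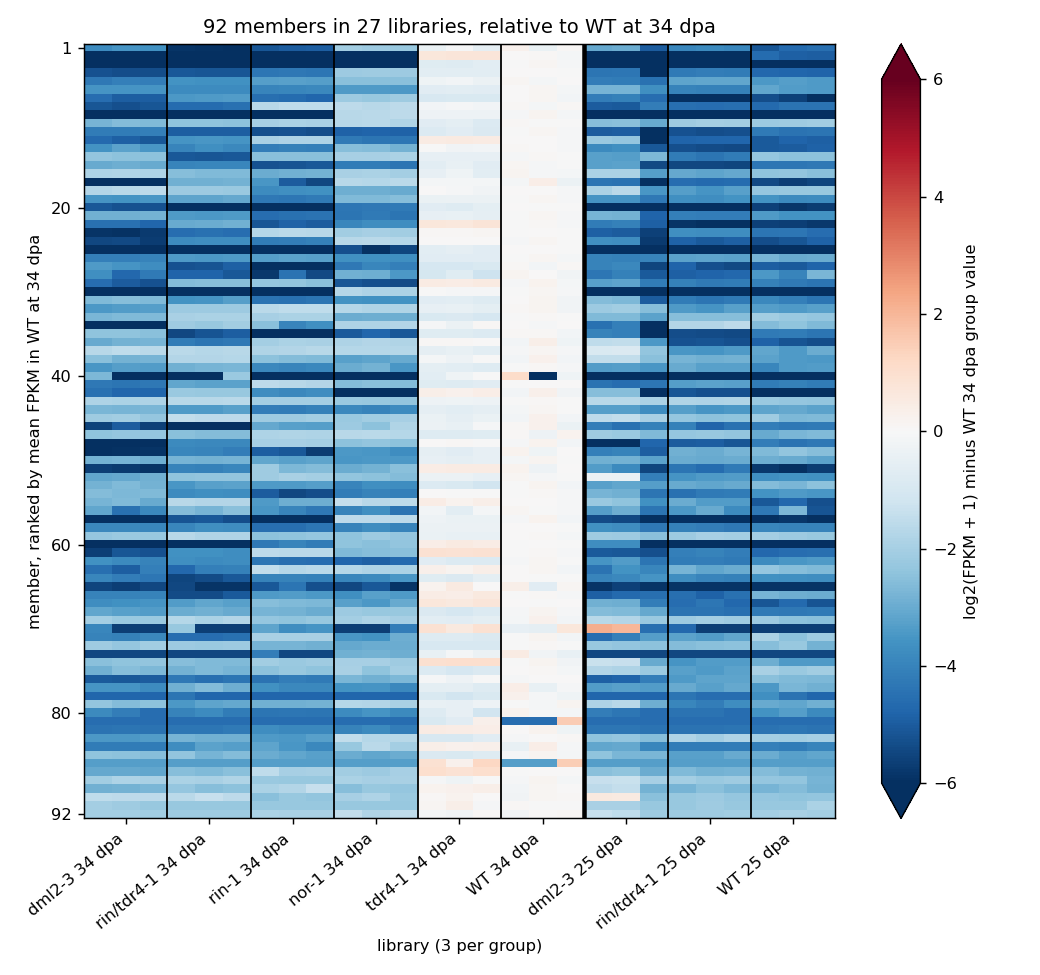
Values of the 92 members (rows, ranked by mean FPKM in WT at 34 dpa) in 27 libraries (columns, 3 per group), as log2(FPKM + 1) minus the value from the WT group mean at 34 dpa. Blue is lower and red higher, colours stop at 6 units, and the thick line parts the 34 dpa groups (left) from the 25 dpa groups. Replicates 1 and 2 of dml2-3 at 25 dpa are paler than replicate 3 in many rows, and 3 rows are uneven within WT.

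The 6 members with the highest level in WT at 34 dpa differed widely in how much signal each mutant kept. Solyc03g111720.3 had 694, 837 and 765 FPKM in dml2-3, 164.2, 157.5 and 150.4 in rin/tdr4-1, and 275.2, 298.5 and 308.3 in rin-1. It had 2263, 2156 and 1981 FPKM in nor-1, 7299, 9070.1 and 6695 in tdr4-1, and 11492, 7325 and 10034 in WT at 34 dpa. The tdr4-1 and WT libraries overlapped, and the mean relative to WT was 22.2% in nor-1 but 1.64% in the double mutant.

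Solyc01g081250.3 also differed between the mutants. It had 1.70, 1.70 and 1.22 FPKM in dml2-3, 113.7, 112.8 and 117.6 in rin/tdr4-1, 2.30, 3.01 and 3.15 in rin-1, and 0.210, 0.880 and 0.660 in nor-1 at 34 dpa. The double mutant thus kept far more than dml2-3, rin-1 or nor-1. Levels were 14900, 15293 and 15079 FPKM in tdr4-1 and 9430.4, 9709.8 and 8342 FPKM in WT, so all tdr4-1 libraries exceeded WT. This gene was already at 296.4 to 377.7 FPKM in WT at 25 dpa. The double mutant at 34 dpa thus lay below the younger WT fruit as well, and dml2-3, rin-1 and nor-1 lay far below it.

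Solyc10g080210.2 had the largest difference between WT stages among members, with 7546, 8421 and 7299.9 FPKM at 34 dpa against 3.07, 2.08 and 2.43 FPKM at 25 dpa. The mutants at 34 dpa stood at 0.510, 0.390 and 0.380 FPKM in dml2-3, 13.3, 13.9 and 12.3 in rin/tdr4-1, 38.1, 35.3 and 31.1 in rin-1 and 66.4, 68.2 and 74.4 in nor-1. The libraries of these 4 mutants did not overlap each other, and dml2-3 was lowest. The tdr4-1 libraries, at 4639, 4507 and 4937 FPKM, lay below all WT libraries.

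Solyc01g099190.4 averaged 152.6 ± 7.58 FPKM in dml2-3, 172.8 ± 1.01 in rin/tdr4-1, 302.0 ± 7.503 in rin-1, 1339 ± 20.6 in nor-1 and 6026 ± 27.4 in WT at 34 dpa (SD, n = 3 each). Solyc09g092380.3 averaged 327.8 ± 22.1 FPKM in dml2-3, 480.5 ± 4.08 in rin/tdr4-1, 600.1 ± 11.9 in rin-1, 1051 ± 4.18 in nor-1 and 5925 ± 491 in WT. These genes share the order dml2-3, rin/tdr4-1, rin-1, nor-1 from low to high. Solyc06g059740.4 was more even, at 431.9 ± 4.70 FPKM in dml2-3, 367.1 ± 1.88 in rin/tdr4-1, 328.2 ± 11.9 in rin-1, 468.0 ± 8.17 in nor-1 and 4983 ± 425 in WT. All 3 were between 63.0% and 83.5% of WT in tdr4-1.

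Across the set, the median level relative to WT at 34 dpa was 5.39% in dml2-3, 7.27% in rin/tdr4-1, 6.08% in rin-1 and 12% in nor-1. On the log2 scale the median difference from WT was -3.68 in dml2-3, -3.45 in rin/tdr4-1, -3.39 in rin-1 and -2.76 in nor-1. Over the other 333 stage-higher genes the median was -2.96 in dml2-3, -2.40 in rin/tdr4-1, -1.33 in rin-1 and -0.79 in nor-1. Median levels below WT were thus not particular to the members. The median over all 18906 genes lay above WT instead, by 0.42 in dml2-3, 0.50 in rin/tdr4-1, 0.23 in rin-1 and 0.036 in nor-1. Under 10% of WT lay 62 members in dml2-3, 60 in rin/tdr4-1, 53 in rin-1 and 41 in nor-1, and 21 members did so in all 4. Over 20% of WT in at least 1 of the 4 lay 44 members, and 2 members did so in all 4. Since the rule set an upper bound on these levels, the shares describe how far below that bound the members lay.

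**Figure D3:**
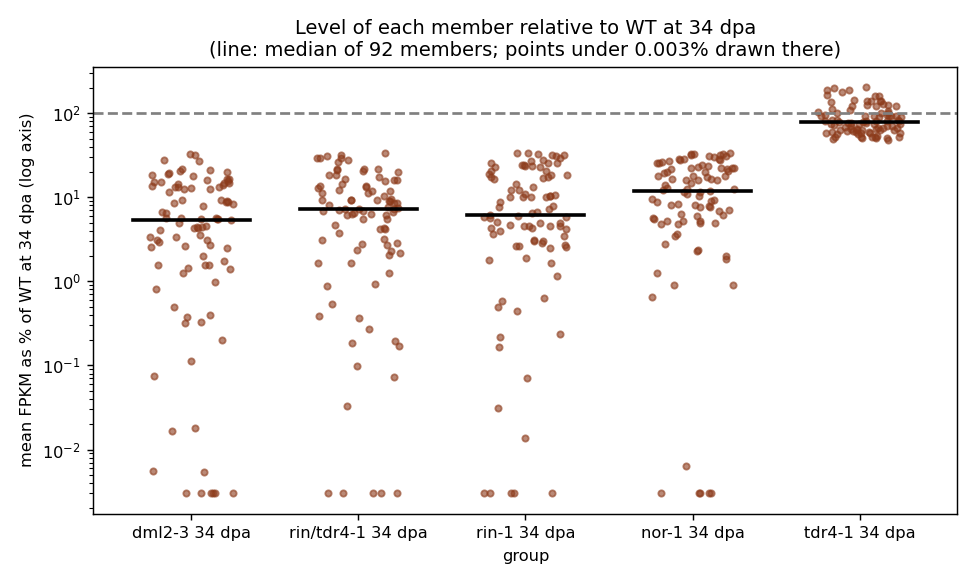
Mean FPKM of each of the 92 members as a percent of its mean in WT at 34 dpa (y axis, log scale), for the 5 mutants at 34 dpa (x axis). Each point is a member, the black line is the median, the dashed line marks WT, and points under 0.003% are drawn at that value. Medians are 5.39% in dml2-3, 7.27% in rin/tdr4-1, 6.08% in rin-1 and 12% in nor-1, and 78.1% in tdr4-1, which the rule held near WT.

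No single mutant was lowest throughout. Of the 4, dml2-3 had the lowest mean for 36 members, rin-1 for 29, rin/tdr4-1 for 15 and nor-1 for 12. The highest mean belonged to nor-1 for 36 members, rin-1 for 20, rin/tdr4-1 for 19 and dml2-3 for 17. Ties were counted for the mutant named first in the order dml2-3, rin/tdr4-1, rin-1, nor-1, which includes 2 members listed at 0 in all 4. Below the level of WT at 25 dpa lay 47 members in dml2-3, 36 in rin/tdr4-1, 41 in rin-1 and 27 in nor-1. In all 4 mutants at once, 13 members lay below that younger WT level and 22 above it.

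Between nor-1 and rin-1 at 34 dpa the members spread over a wide range. The log2 difference of nor-1 minus rin-1 had a median of 0.26 and quartiles of -0.23 and 1.25, and the other 333 stage-higher genes had a median of 0.52. At least 2-fold higher in nor-1 were 27 members, and at least 2-fold lower were 7. Of the other 333 stage-higher genes, 111 were higher and 17 lower by that measure, so the lean towards nor-1 was not particular to the members. Over all 18906 genes the median was -0.20, with 689 higher and 1515 lower. The 3 largest positive differences belonged to genes with almost no signal in rin-1. Solyc08g066240.3 had 768.8, 792.5 and 803.1 FPKM in nor-1 against 1.57, 2.03 and 1.54 in rin-1, and WT at 34 dpa had 2311, 2701 and 2239. Solyc08g066250.4 had 93.4, 84.2 and 82.8 FPKM in nor-1 against 2.04, 2.09 and 1.83 in rin-1. Solyc03g120570.3 had 30.4, 30.7 and 30.6 FPKM in nor-1 against 0.110, 0.220 and 0.130 in rin-1. For these genes nor-1 kept 32.6%, 28.0% and 33.0% of the WT level, close to the limit set by the rule.

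At the other end, 3 genes were far lower in nor-1 than in rin-1. Solyc10g080840.1 had 8.77, 7.96 and 7.37 FPKM in nor-1 against 67.3, 66.2 and 60.5 in rin-1. Solyc03g095900.4 had 71.4, 65.5 and 66.8 FPKM in nor-1 against 358.0, 387.7 and 382.8 in rin-1. Solyc01g006540.4 had 1.48, 1.31 and 1.33 FPKM in nor-1 against 10.5, 9.72 and 10.6 in rin-1. Libraries of the mutants did not overlap for any of these 6 genes, which were chosen for their large differences. Of all 18906 genes, 3302 had every nor-1 library above every rin-1 library, and 9462 had every one below. A lack of overlap was thus common.

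**Figure D4:**
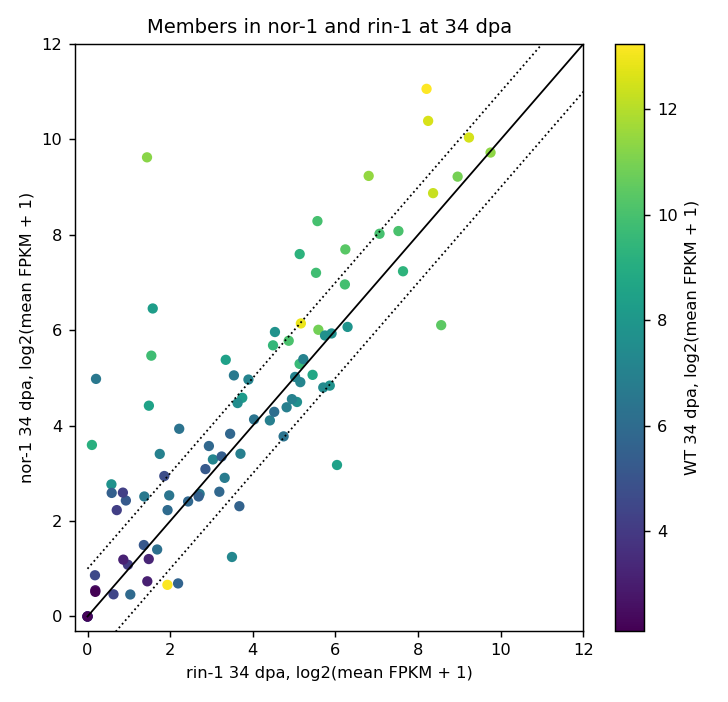
Group values of the 92 members in nor-1 (y axis) and rin-1 (x axis) at 34 dpa, both as log2(mean FPKM + 1), coloured by the same value in WT at 34 dpa. The solid line marks equality and the dotted lines 1 unit either side. Above the upper dotted line lie 27 members and below the lower one 7, and Solyc08g066240.3 is farthest from the line, 8.18 above it.

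The double mutant and rin-1 were balanced around equality. The log2 difference of rin/tdr4-1 minus rin-1 at 34 dpa had a median of 0.11 over the members, with 19 at least 2-fold higher and 16 at least 2-fold lower. For the other 333 stage-higher genes the median was -0.68, and over all 18906 genes 0.26. The member Solyc01g081250.3, described above, had the largest positive difference (4.92). Solyc10g084600.2 had the largest negative one (-3.44), with 0.390, 0.220 and 0.490 FPKM in rin/tdr4-1 against 15.2, 13.5 and 12.9 in rin-1. It had 29.4, 23.7 and 37.7 FPKM in nor-1 and 140.8, 163.9 and 103.4 in WT at 34 dpa.

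In tdr4-1, where the rule allowed a difference of 1 either way, the median log2 difference from WT was -0.34. All 3 tdr4-1 libraries lay below all WT libraries for 50 members and above them for 16, and the ranges overlapped for 26. Of all 18906 genes, 5473 lay below in the same way and 3529 above, so the share above was near that over all genes. The lowest differences came close to the bound, down to -0.998 (Solyc07g054770.1, 172.7 ± 31.2 FPKM in tdr4-1 and 346.0 ± 45.5 in WT, SD, n = 3 each). Members in tdr4-1 thus sat more often below than above WT within the allowed range. The rule favoured high values in WT at 34 dpa, so this lean is not free of the selection and is a description. Over the other 333 stage-higher genes the median was -0.14, with all tdr4-1 libraries below WT for 136 and above for 102. The median of all 18906 genes was -0.065.

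In neither dml2-3 nor rin/tdr4-1 did the median stage difference of these genes come near that of WT. In WT the log2 difference of 34 minus 25 dpa had a median of 3.65 and a maximum of 11.10. In dml2-3 its median was -0.25, with 3 members at least 2-fold higher at 34 dpa and 18 at least 2-fold lower. Without replicate 3 of dml2-3 at 25 dpa the median was -0.27, with 2 members higher and 23 lower by that measure. In rin/tdr4-1 the median was 0.36, with 23 members at least 2-fold higher and 7 at least 2-fold lower. The other 333 stage-higher genes had a median of -0.57 in dml2-3 (8 at least 2-fold higher, 117 lower). In rin/tdr4-1 their median was 0.31 (96 at least 2-fold higher, 37 lower). Over all 18906 genes the median was -0.096 in dml2-3 (244 at least 2-fold higher, 1038 lower). It was -0.0050 in rin/tdr4-1 (1092 at least 2-fold higher, 1540 lower). In rin/tdr4-1 the share at least 2-fold higher was thus larger among members and the other stage-higher genes than over all genes. The values of members at 34 dpa were bounded by the rule in both mutants.

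In rin/tdr4-1 the largest differences between stages were those of Solyc10g080210.2 (13.3, 13.9 and 12.3 FPKM at 34 dpa, 0, 0.0700 and 0 at 25 dpa), Solyc02g077790.1 and Solyc04g080540.2. The second had 0, 0 and 34.96 FPKM at 34 dpa and thus rests on replicate 3. Solyc04g080540.2 had 255.4, 256.6 and 270.5 FPKM at 34 dpa against 27.3, 27.1 and 25.7 at 25 dpa in the double mutant. Its level at 34 dpa was still 9.46% of WT. The 3 largest differences the other way were those of Solyc10g084600.2 (-2.24), Solyc03g111720.3 (-2.04) and Solyc02g065280.3 (-1.41).

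In dml2-3, Solyc07g026650.3 had 38.6, 38.8 and 35.9 FPKM at 34 dpa against 12.1, 11.3 and 0.930 at 25 dpa. Solyc10g076510.2 had 98.7, 98.3 and 105.4 FPKM at 34 dpa against 57.6, 59.9 and 19.4 at 25 dpa. At 34 dpa dml2-3 was still at 18.0% of WT for the first gene and at 5.46% for the second. The largest positive difference, 3.22 for Solyc02g077790.1, rests on 24.9 FPKM in replicate 1 at 34 dpa alone. Without replicate 3 at 25 dpa, the difference of Solyc07g026650.3 was 1.61 in place of 2.09, and that of Solyc10g076510.2 was 0.77 in place of 1.13, which put it at rank 5 in place of rank 3. Solyc07g009510.1, Solyc10g080210.2 and Solyc08g005770.3 were the 3 with the most negative stage difference, -6.32, -4.21 and -3.42. They stayed the lowest 3 without replicate 3 at 25 dpa, at -6.90, -4.74 and -3.98. For Solyc08g005770.3, dml2-3 had 1.98, 1.82 and 2.12 FPKM at 34 dpa against 46.9, 44.9 and 0.800 at 25 dpa. Replicate 3 at 25 dpa was even below the 34 dpa libraries.

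The comparison of dml2-3 with rin/tdr4-1 at 25 dpa is the one contrast tested here in which the rule used neither group. A linear model (limma) was fitted to log2(FPKM + 1) of all 27 libraries, and genes with Benjamini-Hochberg adjusted p under 0.05 over the 18906 genes were called. Higher in dml2-3 were 37 of the 92 members (40.2%), against a background of 26.9% of all genes tested. Lower were 17 members (18.5%), against a background of 28.0%, and 38 were not called. The other stage-higher genes gave similar shares, with 148 higher (44.8%) and 65 lower (19.7%) of 330 tested. The median log2 difference was 0.22 over members and -0.011 over all genes. These shares include the 9 members that passed the filter on low values only through WT and tdr4-1 at 34 dpa. When the filter left out the libraries of those 2 groups, 36 of 83 members were higher (43.4%) and 17 lower (20.5%), against 27.01% and 28.2% of all genes.

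These counts moved with replicate 3 of dml2-3. In 72 members both replicates 1 and 2 lay above replicate 3, and in 12 both lay below it. Between the mean of replicates 1 and 2 and replicate 3, 37 members differed 2-fold or more, 34 of them with replicate 3 lower. Without replicate 3, 51 members were higher (55.4%) and 16 lower (17.4%), against 32.8% and 29.9% of all genes. In a fit of the 2 groups alone, with all replicates, 18 were higher (19.6%) and 12 lower (13.04%), against 17.5% and 19.3% of all genes. The share higher was then near the background, so the excess of higher members was not seen in that fit.

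Among called members whose libraries did not overlap, 4 had the largest differences upwards in dml2-3 against the double mutant at 25 dpa. Solyc07g009510.1 had 222.7, 195.5 and 1.18 FPKM in dml2-3 against 0.900, 0 and 0 in rin/tdr4-1, a difference of 5.21 log2 units (limma SE 1.16 and adjusted p = 0.000727). Replicate 3 stood apart, and without it the difference was 7.40. The call ended in a fit of the 2 groups alone (adjusted p = 0.0817; 1.66e-08 to 0.0817 over the alternatives). The first 2 dml2-3 libraries of this gene exceeded even WT at 34 dpa, which had 34.8, 33.1 and 78.8 FPKM.

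Solyc10g080210.2, the gene with the largest WT stage difference, had 38.8, 35.3 and 1.99 FPKM in dml2-3 against 0, 0.0700 and 0 in rin/tdr4-1, a difference of 3.99 log2 units (limma SE 0.55 and adjusted p = 2.73e-06). Solyc10g007110.3 had 70.6, 73.7 and 18.4 FPKM against 4.59, 4.80 and 4.41, a difference of 3.07 (SE 0.30, adjusted p = 2.6e-08). Solyc04g080540.2 had 153.6, 165.1 and 114.2 FPKM against 27.3, 27.1 and 25.7, a difference of 2.37 (SE 0.15, adjusted p = 1.57e-11). That the groups did not overlap was a condition for naming these genes. Without replicate 3 of dml2-3 the differences were 5.22, 3.71 and 2.53. In a limma fit of the 2 groups alone, adjusted p was 0.0331, 0.0101 and 0.000344. The SE of the main fit shares 1 estimate of the spread over all groups. It can understate the spread of dml2-3, where replicate 3 stood apart.

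Among members lower in dml2-3 at 25 dpa, Solyc01g081250.3 had 1.53, 1.70 and 15.01 FPKM in dml2-3 against 90.97, 77.95 and 87.6 in rin/tdr4-1, a difference of -4.17 log2 units (limma SE 0.40 and adjusted p = 1.9e-08). Solyc06g076320.1 had 8.91, 12.1 and 1.46 FPKM against 64.3, 63.7 and 72.9, a difference of -3.31 (SE 0.42, adjusted p = 1.17e-06). Solyc01g109100.2 had 6.17, 6.81 and 3.07 FPKM against 15.7, 14.8 and 17.1, a difference of -1.46 (SE 0.19, adjusted p = 1.54e-06). Solyc10g085230.2 had 20.02, 18.7 and 12.1 FPKM against 47.8, 46.1 and 45.9, a difference of -1.44 (SE 0.11, adjusted p = 3.34e-10). Without replicate 3 the 4 differences were -5.05, -2.57, -1.17 and -1.23. In a limma fit of the 2 groups alone, adjusted p was 0.0102, 0.0129, 0.0103 and 0.00361. For the first of these genes replicate 3 was the highest dml2-3 library, whereas for the other 3 it was the lowest.

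**Figure D5:**
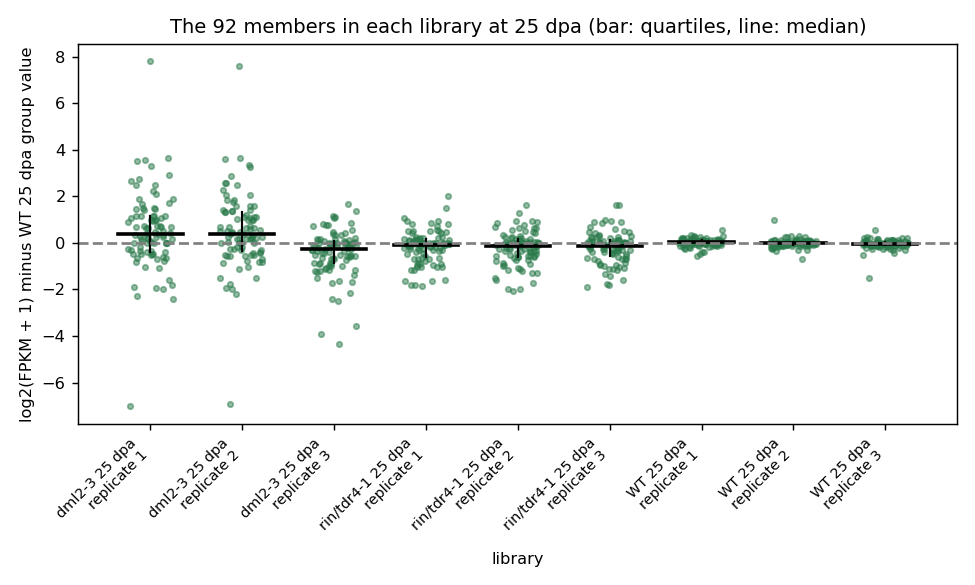
Values of the 92 members in each library at 25 dpa (x axis), as log2(FPKM + 1) minus the value from the WT group mean at 25 dpa (y axis). Points are members, the horizontal line is the median and the vertical bar spans the quartiles. Medians are 0.38 and 0.37 in replicates 1 and 2 of dml2-3 and -0.26 in replicate 3, and lie between -0.14 and -0.086 in rin/tdr4-1.

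Against WT at 25 dpa, dml2-3 was higher for 32 members (34.8%) and lower for 25 (27.2%), with backgrounds of 26.7% and 27.8%. The share lower was near the background and is no result about the members. The share higher is not free of the selection, since the rule used WT at 25 dpa and favoured low values there, and it is given as a description. The same WT libraries serve the comparison with rin/tdr4-1 that follows. With the filter that left out WT and tdr4-1 at 34 dpa, 31 of 83 members were higher and 23 lower, against 26.8% and 27.9% of all genes. The other 330 stage-higher genes tested were chosen on the same WT values, and of these 177 were higher and 44 lower. Median log2 differences were 0.099 over members and 0.67 over the other stage-higher genes. Without replicate 3 of dml2-3, 49 members were higher (53.3%) and 25 lower (27.2%), against 33.1% and 29.9% of all genes. In a fit of the 2 groups alone 12 were higher (13.04%) and 18 lower (19.6%), against 12.4% and 14.9% of all genes. The share higher was then at the background, and lower calls outnumbered higher ones among members and among all genes.

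Differences upwards from WT in this paragraph are not free of the selection, since the rule favoured low values in WT at 25 dpa. Their p-values are given as a description. Solyc07g009510.1, with the dml2-3 values given above, was listed at 0 in all WT libraries at 25 dpa. Its difference on the log2(FPKM + 1) scale was 5.52 (limma SE 1.16 and adjusted p = 0.000423), or 7.71 without replicate 3. This call too ended in a fit of the 2 groups alone (adjusted p = 0.0765; 8.9e-09 to 0.0765 over the alternatives). Solyc10g007110.3 had 70.6, 73.7 and 18.4 FPKM in dml2-3 against 6.15, 4.81 and 4.26 in WT, a difference of 2.96 (SE 0.30, adjusted p = 4.71e-08). Solyc09g008175.1 had 19.8, 17.5 and 6.85 FPKM in dml2-3 against 1.91, 2.76 and 1.56 in WT, a difference of 2.25 (SE 0.24, adjusted p = 6.83e-08). Solyc06g061170.3 had 106.3, 108.0 and 37.6 FPKM in dml2-3 against 22.5, 18.0 and 24.4 in WT, a difference of 1.77 (SE 0.23, adjusted p = 1.55e-06). At 34 dpa dml2-3 had 62.2, 68.8 and 65.2 FPKM of this last gene, which lies between its libraries at 25 dpa.

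Lower in dml2-3 than in WT at 25 dpa, Solyc01g081250.3 showed the largest difference, at 1.53, 1.70 and 15.01 FPKM in dml2-3 against 377.7, 311.0 and 296.4 in WT, or -6.10 log2 units (limma SE 0.40 and adjusted p = 5.8e-11). Solyc06g076320.1 had 8.91, 12.1 and 1.46 FPKM in dml2-3 against 35.5, 40.3 and 34.1 in WT, a difference of -2.46 (SE 0.42, adjusted p = 5.12e-05). Solyc01g099200.3 had 0.220, 0.310 and 1.08 FPKM in dml2-3 against 5.43, 4.86 and 4.63 in WT, a difference of -2.00 (SE 0.14, adjusted p = 1.61e-10). Solyc01g109100.2 had 6.17, 6.81 and 3.07 FPKM in dml2-3 against 18.98, 23.5 and 20.4 in WT, a difference of -1.84 (SE 0.19, adjusted p = 6.13e-08). None of these genes overlapped between the groups, which was a condition for naming them. Without replicate 3, the 4 higher members differed by 7.71, 3.60, 2.69 and 2.27 and the 4 lower ones by -6.97, -1.72, -2.24 and -1.55. In a limma fit of the 2 groups alone, adjusted p was 0.0145 for Solyc10g007110.3, 0.0131 for Solyc09g008175.1 and 0.0328 for Solyc06g061170.3. For the 4 lower members it was 0.00387, 0.0380, 0.00323 and 0.00688.

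In the double mutant at 25 dpa more members were called lower than higher against WT of that age. Compared with WT, rin/tdr4-1 was higher for 11 members (11.96%) against a background of 17.4%, and lower for 27 (29.3%) against a background of 15.3%. These shares too are a description, since the rule used the WT libraries. With the filter that left out WT and tdr4-1 at 34 dpa, 11 of 83 members were higher and 26 lower, against 17.5% and 15.4% of all genes. Among the other 330 stage-higher genes, chosen on the same WT values, 108 were higher and 20 lower. The median log2 difference was -0.10 over members, 0.26 over the other stage-higher genes and 0.021 over all genes. With quantile scaling the calls were 24.4% higher and 13.9% lower over all genes, and 13 higher and 27 lower among members. When replicate 3 of dml2-3 was kept out of the shared estimate of the spread, 19 members were higher (20.7%) and 35 lower (38.0%), against 23.0% and 19.8% of all genes.

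The lower members included Solyc09g075420.3, with 55.9, 49.4 and 57.0 FPKM in rin/tdr4-1 against 209.8, 187.6 and 191.4 in WT, a difference of -1.84 log2 units (limma SE 0.10 and adjusted p = 1.52e-12). Solyc10g080690.2 had 1.52, 0.950 and 1.58 FPKM in the double mutant against 7.29, 6.61 and 6.30 in WT, a difference of -1.73 (SE 0.12, adjusted p = 1.46e-10). Solyc01g081250.3 had 90.97, 77.95 and 87.6 FPKM in the double mutant against 377.7, 311.0 and 296.4 in WT, a difference of -1.92 (SE 0.40, adjusted p = 0.000819). Solyc10g080210.2 had 0, 0.0700 and 0 FPKM in the double mutant against 3.07, 2.08 and 2.43 in WT, a difference of -1.78 (SE 0.55, adjusted p = 0.0156). Quantile scaling took away the call of this last gene (-1.34, with adjusted p = 0.0633 and a range of 3.53e-13 to 0.0633 over the alternatives). With a pseudocount of 0.1 in place of 1 its difference was -4.44, since the double mutant was near 0.

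Of the higher members, Solyc09g008175.1 had 11.5, 8.43 and 8.59 FPKM in rin/tdr4-1 at 25 dpa, against 1.91, 2.76 and 1.56 in WT, a difference of 1.78 log2 units (limma SE 0.24 and adjusted p = 4.19e-06). It was thus above WT at 25 dpa in both mutants, but both differences use the same WT libraries. The rule favoured low values there, so the p-values of these higher members are not free of the selection. Solyc02g087890.4 had 4.61, 3.77 and 5.15 FPKM in the double mutant against 1.07, 0.600 and 1.27 in WT, a difference of 1.48 (SE 0.33, adjusted p = 0.0013). Solyc04g015750.3 had 15.8, 16.8 and 16.3 FPKM against 7.90, 9.03 and 8.17, a difference of 0.88 (SE 0.06, adjusted p = 1.51e-10). Solyc03g111720.3, the most abundant member in WT at 34 dpa, had 632.6, 675.3 and 646.3 FPKM in the double mutant against 274.2, 381.6 and 414.3 in WT, a difference of 0.89 (SE 0.33, adjusted p = 0.0408). That call ended without a filter on low values and without replicate 1 or 2 of WT or any 1 replicate of the double mutant (3.88e-05 to 0.15 over the alternatives).

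At the thresholds of the rule, members and non-members lay close together. Solyc04g054830.4 was just inside the WT criterion, with a stage difference of 2.01, and Solyc12g008480.3 just outside, with 1.98. For dml2-3 the nearest values were 1.54 below WT (Solyc08g066705.1) inside and 1.35 (Solyc01g102410.3) outside. For rin/tdr4-1 they were 1.54 (Solyc08g066705.1) and 1.46 (Solyc01g098110.4), for rin-1 1.56 (Solyc07g054060.3) and 1.41 (Solyc02g088270.3), and for nor-1 1.56 (Solyc09g008175.1) and 1.47 (Solyc10g080900.3). The tdr4-1 bound parted Solyc07g054770.1 at 0.998 from Solyc06g066770.1 at 1.01. Within 0.25 of the tdr4-1 bound lay 22 members inside and 15 genes outside, and within 0.25 of the nor-1 bound 11 inside and 16 outside.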

How the data were processed

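Total RNA of tomato fruit was sequenced in 27 libraries, with group and replicate read from each title. The authors deposited 1 table of FPKM values with 1 column per library. Per the submitters' processing notes, the tools were Trimmomatic, STAR 2.5.4b, RSEM and DESeq2. The sources used here give neither their roles nor the genome build or annotation. When a few genes take more of the total, FPKM of all other genes reads lower. Single-read steps were looked for among values of 0.05 to 1 FPKM by their ratio to 1 WT library: the commonest ratio, to 2 decimals, held at most 6.11% of a library's low genes, so reads were not recovered and precision rests on the replicates. No pair of libraries was identical (0 pairs).

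The gene set and the choice of comparisons were made with earlier results of these data known. Genes under 1 FPKM in all but 2 or fewer libraries were left out, which kept 18906 of 34075. Log2(FPKM + 1) was fitted with 1 mean per group over all libraries in limma 3.58.1 (R 4.3.3), with a variance trend, with Benjamini-Hochberg adjustment over the genes kept. Changes of genes at about 1 FPKM or less come out too small on this scale. The fit was run on simulated data in which each gene had the same spread in every group. Those data hold no library that stands apart as replicate 3 of dml2-3 at 25 dpa does, so they do not test that case. Only the 3 contrasts among the groups at 25 dpa were tested. Members named are the 6 highest in WT at 34 dpa, up to 4 called members in each direction of each tested contrast whose libraries do not overlap, the 3 at each end of nor-1 minus rin-1 and of each mutant's stage difference, those at the thresholds of the rule, and, chosen after their values were seen, those uneven within WT, those at the extremes of rin/tdr4-1 minus rin-1 and those that follow each other in the identifier order. Lists of ripening genes by symbol, and markers of fruit and seed, could not be filled, since no identifier was paired with a name. Alternatives were a pseudocount of 0.1, other filters (none, or a mean of at least 5 FPKM), size factors, quantile scaling, a fit of the 2 groups alone, the replicate number as a block, leaving out each replicate, and, added after seeing the data, equal library totals, a filter on low values without the WT and tdr4-1 libraries at 34 dpa, the stage difference of dml2-3 without replicate 3 at 25 dpa, and a shared spread without replicate 3 of dml2-3 at 25 dpa.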

Additional observations from a re-analysis of the deposited data

How the results depend on the processing

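The number of members rested most on scaling: 92 as reported, 143 with size factors (90 shared), and between 85 and 108 with the other alternatives, which were a pseudocount of 0.1 (108), group medians (89), means of log2 values (89) and equal totals (85). Leaving out 1 library gave 89 to 98. For dml2-3 against rin/tdr4-1 at 25 dpa, 54 members were called as reported, 30 in a fit of the 2 groups alone, and 46 to 67 without 1 replicate. For dml2-3 against WT at 25 dpa, 57 were called, 30 in a fit of the 2 groups alone, and 53 to 74 without 1 replicate. Such a fit rests on 6 libraries in place of 27. For rin/tdr4-1 against WT at 25 dpa, 38 were called, 46 in the fit of the 2 groups alone, and 31 to 38 without 1 replicate. With equal totals the 3 counts were 53, 56 and 40, and with the filter without WT and tdr4-1 at 34 dpa 53, 54 and 37 of 83 members. The median stage difference of members in dml2-3 was -0.25, or -0.27 without replicate 3 at 25 dpa. With equal totals, 22.5% of all genes tested were higher and 33.1% lower in dml2-3 than in rin/tdr4-1 at 25 dpa. Deviations of same-numbered replicates were compared among the groups at 25 dpa only, and were weakly related (r between -0.067 and 0.063). Between rin/tdr4-1 and WT they were all positive (0.057, 0.063 and 0.043). Whether the numbers pair the libraries is therefore not settled. With the replicate block the 3 counts were 54, 56 and 39. Of the 24 named differences, 20 stayed called in the same direction under all alternatives run, and 4 lost the call at least once, as given in the report. None of the 368 alternative values reversed (0 reversed). FPKM gives no depth, so no limit of detection can be set for members listed at 0.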

Other observations

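Some members follow each other closely in the identifier order, which in tomato runs along the chromosomes. Taking identifiers at most 5 places apart in the sorted table, 12 of the 92 members formed 5 runs, with 6 further genes between them. Solyc08g066240.3 and Solyc08g066250.4 are next to each other and were alike across the groups at 34 dpa: the first averaged 0.430 FPKM in dml2-3, 2.41 in rin/tdr4-1, 1.71 in rin-1, 788.1 in nor-1 and 2417 in WT, and the second 0.0167, 0.577, 1.99, 86.8 and 309.5. Solyc12g013690.2 and Solyc12g013700.2, also next to each other, averaged 697.9 and 1152 FPKM in tdr4-1 against 903.5 and 709.8 in WT at 34 dpa, so that they lay on opposite sides of WT in that mutant. Solyc06g054610.2 and Solyc06g054620.4 averaged 94.8 and 34.5 FPKM in WT at 34 dpa.

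The run Solyc02g065240.3, Solyc02g065260.4 and Solyc02g065280.3 averaged 868.3, 559.9 and 61.7 FPKM in WT at 34 dpa, while each of the 4 genes between them averaged at most 1.26 FPKM there. In dml2-3 at 34 dpa these members differed, at 22.8 ± 1.44, 0 (listed at 0 in every library) and 2.65 ± 0.538 FPKM (SD, n = 3 each). The run Solyc01g099150.5.1, Solyc01g099190.4 and Solyc01g099200.3 averaged 20.9, 6026 and 35.8 FPKM in WT at 34 dpa. Between them lies Solyc01g099160.4, which met the criteria for WT, rin/tdr4-1 and tdr4-1 but not those for dml2-3, rin-1 and nor-1: it averaged 64.1 FPKM in dml2-3, 20.1 in rin/tdr4-1, 52.9 in rin-1, 175.9 in nor-1 and 94.3 in WT at 34 dpa. The same gene was at 78.5 FPKM in dml2-3 and 13.3 in WT at 25 dpa. Whether genes of a run are alike in sequence, so that reads could be split between them, was not tested. By the chromosome number in the identifiers, no member was on chromosome 5 (0 of 92), which holds 6.99% of the genes, and 13 members (14.1%) were on chromosome 2, which holds 9.92%.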
